A study of Mus musculus with 8 samples.

Results

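The Dlk1-Dio3 imprinted domain of mouse distal chromosome 12 was followed through 4 genes, Dlk1, Meg3, Rian and Mirg. Their rows were found by symbol, and the genes were chosen with earlier results of these data known. All 4 were found among the 21069 features of the day 5 tables, and Dlk1 was found among the 19011 genes of the day 0 table. Meg3, Rian and Mirg were not matched there to a single row by symbol, so they were not analysed at day 0.

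The libraries hold polyadenylated RNA of 46C, a mouse embryonic stem cell line that carries green fluorescent protein in the neural gene Sox1, with C57BL/6 given as the strain. The groups were LincNDIME_KO (KO in the following), the hairpin line shMef2c, the control hairpin line shCtrl and wild type (WT), each as stem cells on feeder fibroblasts at day 0 and as aggregates labelled neural progenitor cells at day 5. The label LincNDIME marks NDIME as a long intergenic noncoding RNA, and MEF2C is a transcription factor known from muscle, heart and neurons. The comparisons ask what the knockout changes relative to WT, and what the hairpin against Mef2c changes relative to shCtrl. Each line and day is 1 library, so no difference below has a replicate check or a test. The labels do not say whether a line is a single clone.

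Imprinted genes are transcribed from the allele of only 1 parent. In this domain Dlk1, Rtl1 and Dio3 encode proteins and are expressed from the paternal chromosome. The long noncoding RNAs Meg3 (also called Gtl2), Rian and Mirg are expressed from the maternal chromosome, and the RNAs processed from their introns and exons include small nucleolar RNAs and a large cluster of miRNAs. The choice between both programmes is set by a region between Dlk1 and Meg3 that is methylated on the paternal copy. In mouse stem cells the level of the maternal noncoding RNAs is widely used as a readout of whether that imprint is intact. In mouse skeletal muscle, factors of the MEF2 family are known to act on the miRNA cluster. The present libraries measure total polyadenylated RNA, without alleles and without mature miRNAs.

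Both promoter windows below are shown because their genes, the first paternal and the first maternal transcript of the domain, took different values across the day 5 libraries. They run from 250 bases before to 50 bases after the RefSeq start, on the plus strand of GRCm38.p6, at chr12:109452573-109452872 for Dlk1 and chr12:109540746-109541045 for the first of the Meg3 start sites. Capitals mark matches to the motifs searched on both strands.
Dlk1: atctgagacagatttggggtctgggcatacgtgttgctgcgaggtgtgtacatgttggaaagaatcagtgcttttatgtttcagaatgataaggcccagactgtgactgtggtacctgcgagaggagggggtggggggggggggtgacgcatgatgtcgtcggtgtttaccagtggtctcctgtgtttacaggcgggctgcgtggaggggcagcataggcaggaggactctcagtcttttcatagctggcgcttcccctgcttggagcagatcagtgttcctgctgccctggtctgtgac
Meg3: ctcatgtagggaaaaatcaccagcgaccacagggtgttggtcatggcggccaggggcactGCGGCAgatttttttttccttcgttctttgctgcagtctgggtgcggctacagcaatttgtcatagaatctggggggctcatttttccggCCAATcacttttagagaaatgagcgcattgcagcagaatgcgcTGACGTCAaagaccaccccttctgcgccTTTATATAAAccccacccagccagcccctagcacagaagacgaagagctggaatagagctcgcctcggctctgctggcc
The motifs searched were the TATA box with TATAAA, the CCAAT box, the GC box with GGGCGG, the cyclic AMP response element with TGACGTCA, the motif TGCCGC that ZFP57 binds when methylated, the E-box with CAGCTG and the MEF2 consensus. The Meg3 window held TGACGTCA, the palindromic cyclic AMP response element, with its first base at -57. It also held TATAAA, the TATA box, on the plus strand at -25 and, overlapping it, on the minus strand at -29. Beside these it held CCAAT at -100 and TGCCGC on the minus strand at -190. Of 32851 RefSeq promoter windows of the same length, 1.79% held TGACGTCA, 13.6% TATAAA, 37.4% CCAAT and 11.6% TGCCGC. The Dlk1 window held none of the 7 motifs, MEF2 consensus included, which 3.19% of all windows held. The windows of the other Meg3 start and of Rian held none either, and the Mirg window held CCAAT at -184. The number of CG dinucleotides, the targets of DNA methylation, was 13 in the first Meg3 window, 10 in the Mirg window, 9 in the Dlk1 window and 0 in the Rian window, against a median of 7.0 over all windows.

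RefSeq placed 61 miRNA genes among the 103 genes between Dlk1 and Dio3, with 113 mature miRNAs. The spans of Meg3, Rian and Mirg held 2, 3 and 10 of these miRNA genes. Of the 113 mature miRNAs, 18 shared their seed (bases 2 to 8, the part that pairs with target messages) with another of the domain, in 9 groups. The following are shown as examples of what the noncoding RNAs carry: miR-770-5p lies in Meg3, both arms of miR-1188 lie in Rian, and miR-453, miR-496a-5p and miR-410-5p lie in Mirg. miR-494-5p lies outside the 3 spans and has the seed of miR-410-5p. Capitals mark the seed.
miR-770-5p: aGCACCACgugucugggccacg
miR-1188-5p: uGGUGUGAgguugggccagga
miR-1188-3p: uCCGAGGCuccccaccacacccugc
miR-453: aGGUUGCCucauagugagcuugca
miR-496a-5p: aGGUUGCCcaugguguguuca
miR-410-5p: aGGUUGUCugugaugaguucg
miR-494-5p: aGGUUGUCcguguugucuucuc
The seed GGUUGCC is shared by miR-453 and miR-496a-5p, and GGUUGUC by miR-410-5p and miR-494-5p. Of the domain's miRNA genes, Mir1188 was the only one listed in the day 5 tables, with 1 read in the KO library, and it was not listed in the shMef2c, shCtrl and WT libraries. These libraries therefore carry no usable measure of the mature miRNAs, and the values below are those of the host RNAs.

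Reads assigned to genes came to 25996204 to 26834802 per library at day 5 and 20312032 to 20883674 at day 0. Mef2c, the target of the hairpin, was at 0.12 FPKM in shMef2c and 0.50 FPKM in shCtrl at day 5, and at 0.10 FPKM in KO and 0.45 FPKM in WT. At day 0 it was at 0.37 RPKM in the library labelled shMef2c, above the 0.16 RPKM in shCtrl, from 44 and 20 reads. The Mef2c level thus goes against that label. Fibroblast markers of the feeder cells summed to 478.99 RPKM in that library and 291.99 RPKM in shCtrl. Their part in the Mef2c value was not tested. The deletion in KO was not checked, since NDIME was not matched by name. Of the progenitor markers at day 5, Sox1 was at 12.05 and 2.45 FPKM in KO and shMef2c and at 13.6 and 15.76 FPKM in shCtrl and WT. Pax6 was at 8.15 and 0.21 FPKM in KO and shMef2c and at 12.32 and 11.99 FPKM in shCtrl and WT, and Nes at 11.79 and 10.03 FPKM in KO and shMef2c and at 40.22 and 45.69 FPKM in shCtrl and WT. The shMef2c library thus has little of Sox1 and nearly no Pax6 for its label, and its day 0 library had 0.26 RPKM of Pax6 and 12.06 RPKM of Nes. All 16 naive pluripotency markers were also present there, summing to 2152.23 and 2679.26 FPKM in KO and shMef2c and to 555.77 and 823.57 FPKM in shCtrl and WT. The libraries labelled neural progenitor cells therefore differ in their content of both kinds of marker. In such mixtures, fewer cells of a type and less RNA per cell cannot be told apart.

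At day 5 the genes of the domain differed in how far their levels varied between the libraries. All 4 were below shCtrl in shMef2c, and in KO 3 of 4 were above WT. All 4 were also higher in shCtrl than in WT, and Rian and Mirg in shMef2c were above WT. Dlk1 in shMef2c was at 0.136 times its level in shCtrl, and it was higher in KO than in WT by less than 2-fold. Meg3 was lower in both perturbed lines than in their controls, by less than 2-fold, while Rian and Mirg differed little between shMef2c and shCtrl. Across the 4 libraries Dlk1 spanned 8.67-fold from the lowest to the highest, Meg3 2.34-fold, Mirg 1.72-fold and Rian 1.30-fold.

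**Figure D1:**
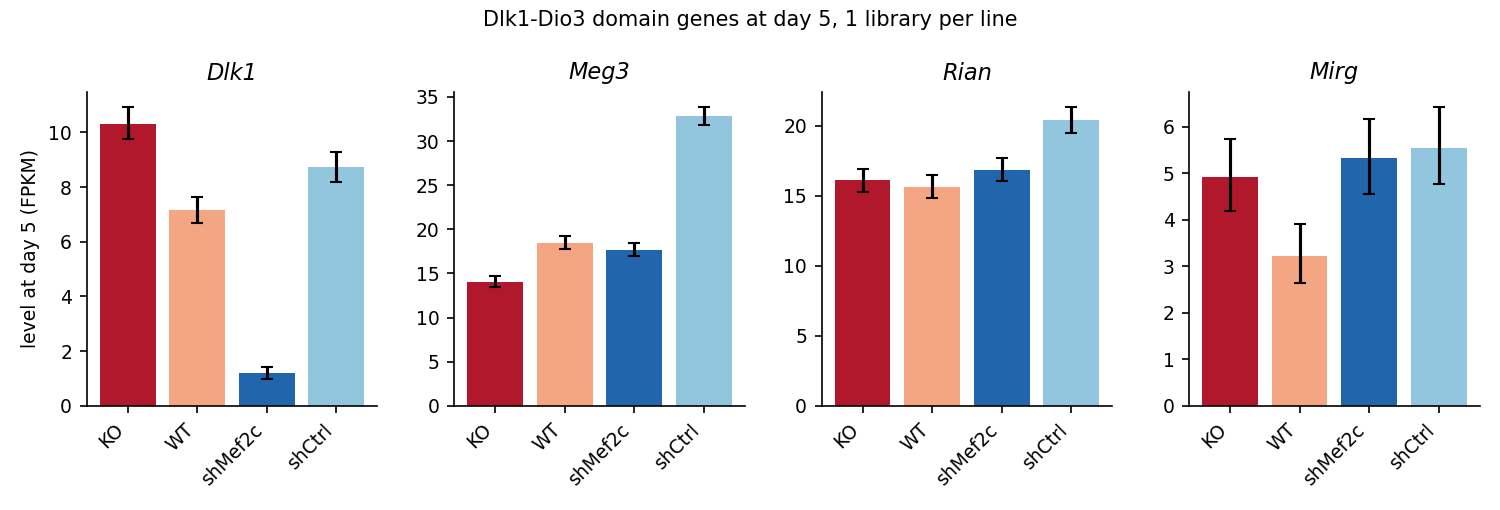
Day 5 level in FPKM (y axis, from 0) of Dlk1, Meg3, Rian and Mirg in the KO, WT, shMef2c and shCtrl libraries, with bars for the single library of each line and error bars for its exact 95% Poisson interval, which covers counting error only. Dlk1 is at 1.19 FPKM in shMef2c and between 7.15 and 10.32 FPKM in the others, whereas Meg3 is highest in shCtrl at 32.85 FPKM and Rian stays between 15.64 and 20.38 FPKM.

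Dlk1 encodes a transmembrane protein with epidermal growth factor repeats, related to the Notch ligands of the Delta family, and marks many immature cell types. Its day 5 level was 10.32 FPKM in KO, 1.19 FPKM in shMef2c, 8.72 FPKM in shCtrl and 7.15 FPKM in WT, from 1173, 136, 994 and 832 reads. The shMef2c library stood far below the other 3, and the exact 95% counting intervals of the 4 levels did not overlap, at 9.74 to 10.9 FPKM in KO, 0.998 to 1.41 in shMef2c, 8.19 to 9.28 in shCtrl and 6.67 to 7.65 in WT. Taken as log2((FPKM + 1)/(FPKM + 1)), Dlk1 was -2.15 in shMef2c relative to shCtrl. Its share of the reads was 0.134 times that in shCtrl, with an exact 95% interval of 0.111 to 0.160 that covers counting error only. Relative to WT, the other control, shMef2c had a Dlk1 log2 ratio of -1.90, in a comparison where 7.21% of all genes tested differed 2-fold or more. In the authors' deposited table of shMef2c against shCtrl, Dlk1 is listed with a log2 ratio of -2.87, computed without a pseudocount of 1, while Meg3, Rian and Mirg are not listed.

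Dlk1 in KO went the other way from shMef2c. Its log2 ratio of KO over WT was 0.47, and the read share was 1.43 times that in WT (1.31 to 1.56). Relative to shCtrl the KO log2 ratio was 0.22, and that of shCtrl over WT was 0.25. The KO library thus stood above both controls, by a margin over shCtrl about as large as that of shCtrl over WT. No member is listed in the authors' deposited table of KO against WT.

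Meg3, a maternally expressed noncoding RNA with growth-restraining activity in several cell systems, reached 14.04 FPKM in KO, 17.70 FPKM in shMef2c, 32.85 FPKM in shCtrl and 18.50 FPKM in WT. The shCtrl library stood alone at the top, KO was lowest, and the counting intervals of shMef2c (17.0 to 18.4 FPKM) and WT (17.8 to 19.2 FPKM) overlapped. The log2 ratio was -0.86 for shMef2c over shCtrl (read share 0.533 times, 0.507 to 0.562) and -0.37 for KO over WT (0.777 times, 0.733 to 0.824). Between the controls, shCtrl over WT, it was 0.80 (1.63 times, 1.55 to 1.71), nearly as large as the difference between shMef2c and shCtrl and larger than that between KO and WT. Against the opposite controls Meg3 gave -0.06 for shMef2c over WT and -1.17 for KO over shCtrl, where 10.2% of all genes tested differed 2-fold or more. How low Meg3 stands in a perturbed line thus depends on which control library it is set against.

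The gene model behind the Meg3 level also differed between libraries. Its length, as deposited, was 5523.32 bases in KO, 4898.14 in shMef2c, 4945.00 in shCtrl and 5392.67 in WT. KO over shCtrl was 0.427 times for the FPKM level and 0.477 times for the read share, which does not use the length.

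Rian, the noncoding RNA that hosts a cluster of small nucleolar RNAs, was at 16.09 FPKM in KO, 16.84 FPKM in shMef2c, 20.38 FPKM in shCtrl and 15.64 FPKM in WT. The values lay close together, with shCtrl highest and overlapping counting intervals among KO, shMef2c and WT. The log2 ratio of KO over WT was 0.04 (read share 1.03 times, 0.956 to 1.11), with an interval that includes no difference. That of shMef2c over shCtrl was -0.26 (0.826 times, 0.772 to 0.883), beside 0.36 for shCtrl over WT. Against the opposite controls both turned sign, to -0.32 for KO over shCtrl and 0.10 for shMef2c over WT.

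Mirg, a host of many of the domain's miRNAs, was at 4.91 FPKM in KO, 5.32 FPKM in shMef2c, 5.55 FPKM in shCtrl and 3.23 FPKM in WT, from 160, 176, 179 and 107 reads. Here WT stood apart at the low end, with a counting interval of 2.65 to 3.90 FPKM, and the intervals of the other 3 libraries overlapped. The log2 ratio of KO over WT was 0.48 (read share 1.51 times, 1.18 to 1.95). That of shMef2c over shCtrl was -0.05 (0.960 times, 0.775 to 1.19), with an interval that includes no difference. The ratio between the controls, 0.63, was again larger than the KO difference. Against the opposite controls Mirg turned sign as well, to -0.15 for KO over shCtrl and 0.58 for shMef2c over WT.

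Of the 4 genes, 0 were 2-fold or more different between KO and WT, where 7.31% of the 12832 genes with a mean of 1 FPKM or more were. Between shMef2c and shCtrl, 1 of 4 was, Dlk1, and it was lower, where 9.26% of 13041 genes differed 2-fold or more and 4.78% were lower. The median log2 ratio of the 4 genes was 0.26 in KO relative to WT and -0.56 in shMef2c relative to shCtrl, beside medians of 0.00 and -0.05 over all genes tested. For shCtrl over WT, 0 of 4 were 2-fold different (0.996% of all genes), and all 4 ratios were above 0 with a median of 0.50, beside 0.02 over all genes. Of 13041 genes, 95 had a lower ratio of shMef2c over shCtrl than Dlk1, 865 lower than Meg3, 4107 lower than Rian and 6473 lower than Mirg. These shares are given as a description, and with 4 genes in 1 chromosomal cluster they are not 4 independent observations.

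The proportions among the members differed from library to library. The FPKM of Dlk1 over that of Meg3 was 0.735 in KO and 0.386 in WT, and 0.0672 in shMef2c and 0.265 in shCtrl. Mirg over Rian was steadier, at 0.305 in KO and 0.207 in WT and at 0.316 in shMef2c and 0.272 in shCtrl. The summed FPKM of the 3 noncoding RNAs was 35.04 in KO and 37.37 in WT, and 39.86 in shMef2c and 58.78 in shCtrl. Over the 4 libraries the coefficient of variation was 58.2% for Dlk1, 39.9% for Meg3, 22.1% for Mirg and 12.5% for Rian, beside a median of 14.8% over the 9023 genes with a mean of 5 FPKM or more.

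Along the chromosome, 3 of the listed genes were 2-fold or more lower in shMef2c than in shCtrl: Dlk1, Begain and, farther upstream, Eml1. Begain, the brain-expressed gene next to Dlk1 among those listed, was at 1.63 FPKM in shMef2c and 7.11 FPKM in shCtrl, a log2 ratio of -1.62. Its level was 2.75 FPKM in KO and 3.69 FPKM in WT, a log2 ratio of -0.32. The control libraries differed for Begain as well, with a log2 ratio of 0.79 for shCtrl over WT. Eml1, a microtubule-associated gene, was at 8.07 FPKM in shMef2c and 18.55 FPKM in shCtrl, a log2 ratio of -1.11. Both are also listed as lower in the authors' deposited table, at -2.12 and -1.20. Of the 13 flanking genes, 2 were thus 2-fold or more lower and 0 higher in shMef2c than in shCtrl, beside 4.78% lower over all genes, with a median log2 ratio of 0.03. Between Eml1 and Begain, Yy1 (0.15), Wars (0.32) and Wdr25 (0.25) had ratios above 0. The other genes listed there were lower in shMef2c than in shCtrl: Degs2 (1.84 and 3.37 FPKM), Evl (26.77 and 34.44 FPKM) and Slc25a29 (0.89 and 1.2 FPKM). Set against WT, Begain in shMef2c was at -0.83 and only Eml1 (-1.14) of the 13 passed 2-fold, while KO over shCtrl gave -1.11 for Begain. Between KO and WT, 0 of the 13 were 2-fold different, with ratios from -0.58 to 0.94. Beyond Dio3, none of the 5 flanking genes was lower in shMef2c by 2-fold.

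**Figure D2:**
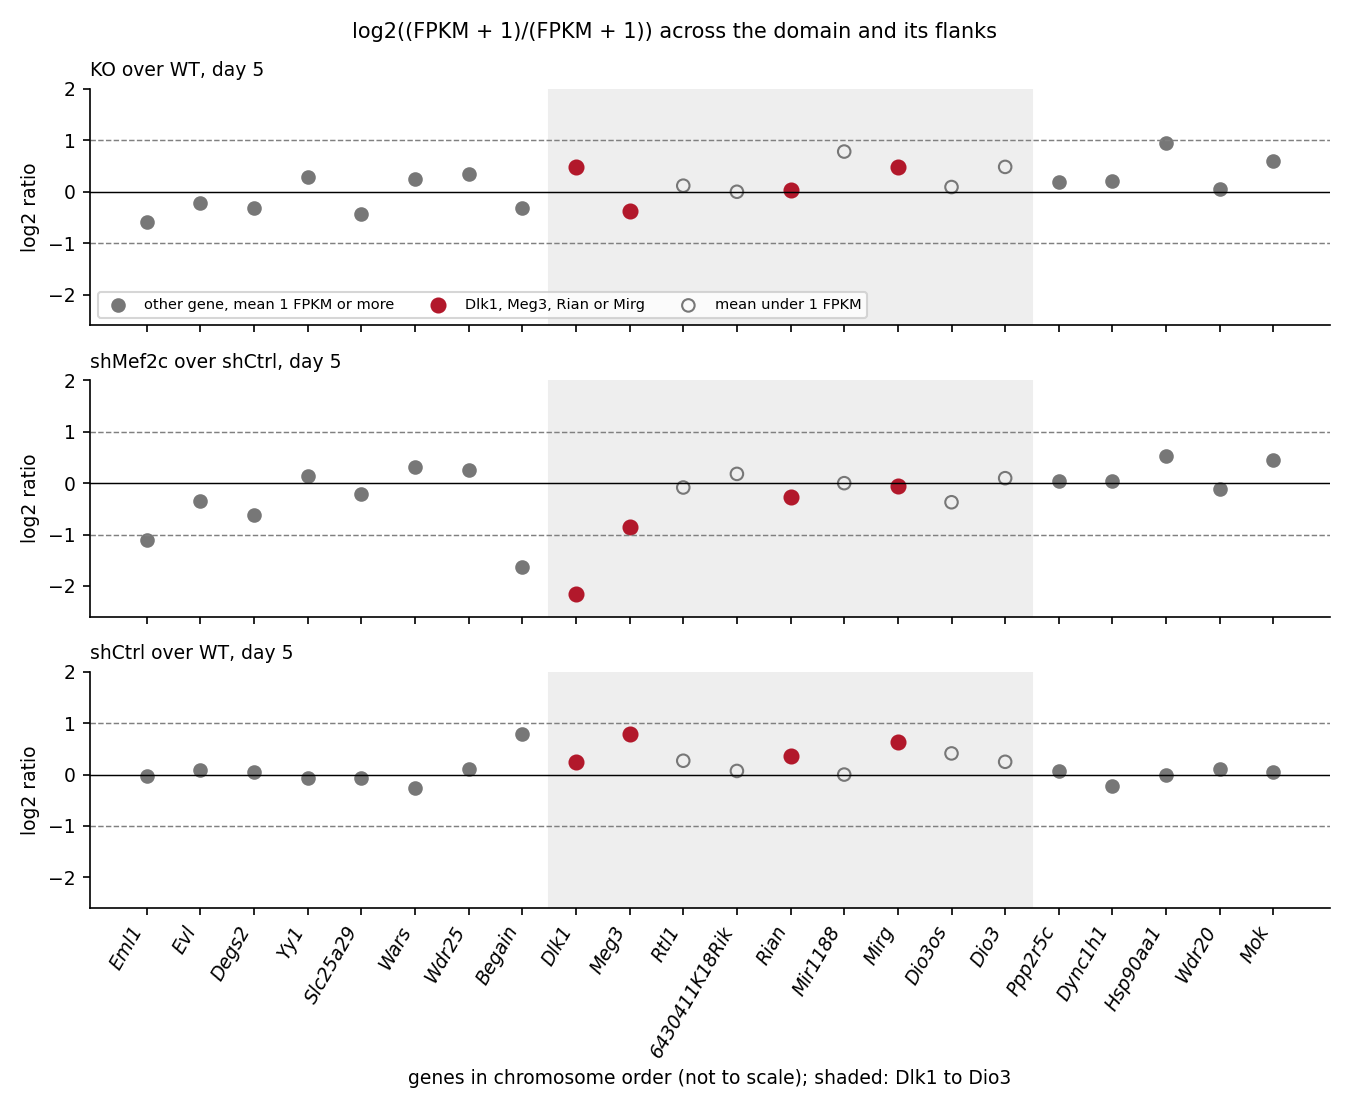
log2((FPKM + 1)/(FPKM + 1)) at day 5 (y axis) for the listed genes of the domain and its flanks in chromosome order (x axis, not to scale), for KO over WT, shMef2c over shCtrl and shCtrl over WT. Each point compares 2 libraries, open points have a mean under 1 FPKM, dashed lines mark 2-fold, and the shading runs from Dlk1 to Dio3. In the middle panel Begain (-1.62), Dlk1 (-2.15) and Eml1 (-1.11) lie below the lower line and Rian (-0.26) and Mirg (-0.05) near 0.

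The other paternally expressed genes were scarce at day 5. Rtl1, a gene derived from a retrotransposon, was at 0.27 FPKM in KO and 0.17 FPKM in WT, and at 0.33 FPKM in shMef2c and 0.41 FPKM in shCtrl. An antisense gene, 6430411K18Rik, overlaps it, and because no source at hand says whether counting used the strand, reads of both cannot be told apart. It had 6.31 estimated reads in shMef2c and 1.6 in shCtrl and was not listed in KO and WT. Dio3, the deiodinase that inactivates thyroid hormone, was at 0.86 FPKM in KO and 0.33 FPKM in WT, and at 0.69 FPKM in shMef2c and 0.58 FPKM in shCtrl. The Rtl1 and Dio3 values rest on 16 to 55 reads. For all of these genes, 6430411K18Rik included, the means lie under 1 FPKM, so none entered the count of 2-fold differences.

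Dlk1 was scarce at day 0, and the lines did not separate. Its level was 1.36 RPKM in KO, 1.88 RPKM in the library labelled shMef2c, 1.76 RPKM in shCtrl and 1.73 RPKM in WT, from 50, 59, 63 and 61 reads. All 4 counting intervals overlapped. The log2 ratio was -0.21 for KO over WT (read share 0.843 times, 0.568 to 1.25), 0.06 for the library labelled shMef2c over shCtrl (0.940 times, 0.647 to 1.36) and 0.02 for shCtrl over WT. Dlk1 was not 2-fold different in any of the 3, where 2.93% of all genes tested were for KO over WT, 0.231% for the library labelled shMef2c over shCtrl and 1.27% for shCtrl over WT.

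Between the days the levels of Dlk1 diverged. Day 5 over day 0 was centred on the median of the shared genes with a mean of 1 or more, because the days were normalized separately. The log2 ratios were 2.25 in KO, -0.36 in shMef2c, 1.74 in shCtrl and 1.56 in WT. The rise in KO, shCtrl and WT passed 2-fold, as did the differences of 19.9% of all genes tested in KO, 30.6% in shCtrl and 30% in WT, with 18.9% in shMef2c. The level is per length, and the gene model of Dlk1 differs between the tables. At day 5 it is 4353.22 to 4453.20 bases long, and 2.41 to 2.87 times the length that the day 0 reads and RPKM imply. For 9578 genes above a minimum of reads in every library, a set without Dlk1, the median length at day 0 was 0.994 to 0.995 times that at day 5. The share of the reads, which is free of the length, was 18.0 times higher at day 5 than at day 0 in KO (13.6 to 24.4), 12.6 times in shCtrl (9.77 to 16.5) and 10.6 times in WT (8.18 to 14.0). In shMef2c it was 1.79 times (1.31 to 2.48), so that line is above day 0 by reads and below it by level. Whether the additional length at day 5 carries reads of its own was not tested.

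**Figure D3:**
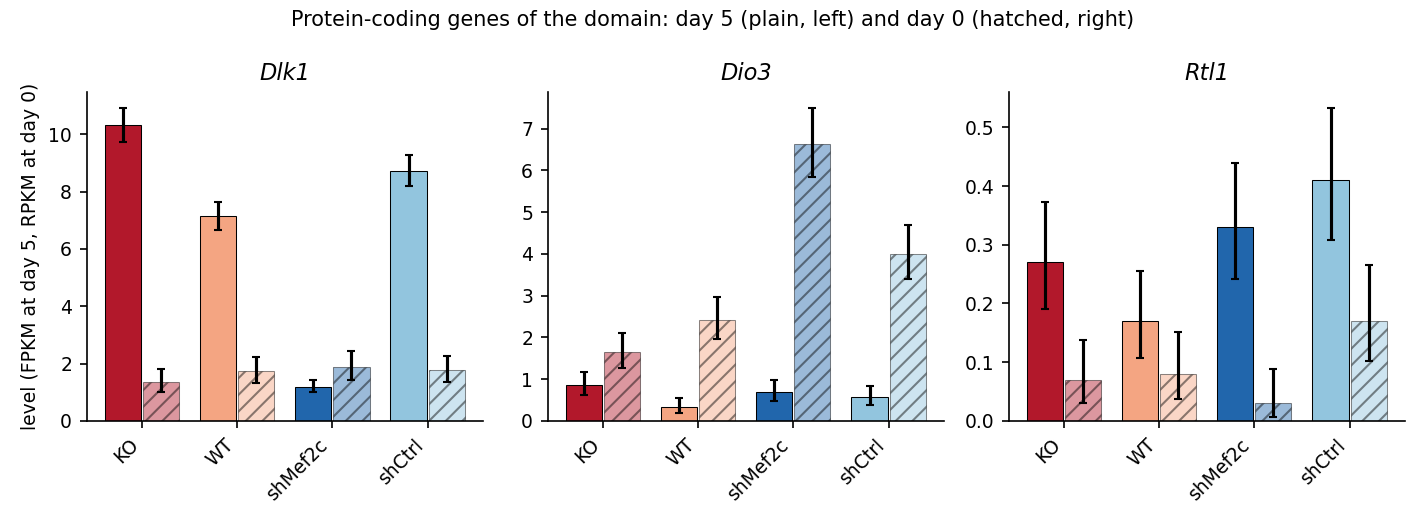
Level (y axis, from 0, in FPKM at day 5 and RPKM at day 0) of Dlk1, Dio3 and Rtl1 in each line, with plain bars for day 5 and hatched bars for day 0, 1 library each, and exact 95% Poisson intervals. Dlk1 is higher at day 5 in KO, WT and shCtrl and lower in shMef2c, Dio3 is lower at day 5 in all 4 lines, and Rtl1 stays under 0.5 in every library. The Dlk1 bars of the 2 days use gene models of different length.

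Dio3 was lower at day 5 than at day 0 in all 4 lines. It was at 0.86, 0.69, 0.58 and 0.33 FPKM at day 5 in KO, shMef2c, shCtrl and WT, against 1.64, 6.64, 4.00 and 2.42 RPKM at day 0. The centred log2 ratio was -2.14 in shMef2c, -1.74 in shCtrl, -1.38 in WT and -0.52 in KO, so 3 of the 4 lines passed 2-fold. The gene model of Dio3 had nearly the same length in both tables (1.00 to 1.01 times). The summed level of 20 fibroblast markers, all 20 present in every library, was 46.58 to 55.18 FPKM at day 5. At day 0, with feeder cells in the culture, it was 272.28 RPKM in KO, 478.99 RPKM in the library labelled shMef2c, 291.99 RPKM in shCtrl and 287.34 RPKM in WT. The library highest in Dio3 at day 0 was thus also the highest in these markers, and their part in the Dio3 and Dlk1 values at day 0 was not tested. Rtl1 was at 0.07 RPKM in KO, 0.03 RPKM in the library labelled shMef2c, 0.17 RPKM in shCtrl and 0.08 RPKM in WT at day 0, from 3 to 19 reads.

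The genes whose pattern was most like that of Dlk1 were sought among 8386 genes with a mean of 5 FPKM or more at day 5, by the root mean square difference of log2(level + 1) over the 8 libraries after subtracting the mean of each day. The nearest was Syp, a synaptic vesicle protein, at a difference of 0.15. Its day 5 level was 7.19 FPKM in KO and 5.44 FPKM in WT, and 1.12 FPKM in shMef2c and 7.21 FPKM in shCtrl. Next came Nhlh1, a basic helix-loop-helix factor of early neurons (0.25), Igfbpl1 (0.26), the microtubule protein gene Map1b (0.28) and Sst, which encodes somatostatin (0.28). For each of these, shMef2c was the lowest of the day 5 libraries. At day 0 Syp (0.19 to 0.39 RPKM), Nhlh1 (0 to 0.06) and Sst (0 to 0.09) were near 0. The day 0 libraries thus add little to the match of these genes with Dlk1. Igfbpl1 was at 1.02 to 1.4 RPKM and Map1b at 9.11 to 14.07 RPKM there.

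For Meg3, which has 4 libraries, the nearest of 8436 genes were Fam107b (0.09), Hmgcs1, an enzyme of cholesterol synthesis (0.10), Nenf (0.10), Rras (0.10) and the cold-inducible RNA-binding protein Cirbp (0.11). All 5 were highest in shCtrl and lowest in KO. Among the members, Rian differed from Meg3 by 0.31 and ranked 945 of 8436, while Mirg differed by 0.43 and ranked 3432. Dlk1 differed by 0.97 and ranked 8237. Rian and Mirg were closer to each other, at 0.19. The nearest genes to Mirg were Ets2, Ppp1r14a, Reep6, Vill and Bmp7, all lowest in WT, at differences of 0.04 to 0.06. With so few libraries, many genes can share a pattern.

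**Figure D4:**
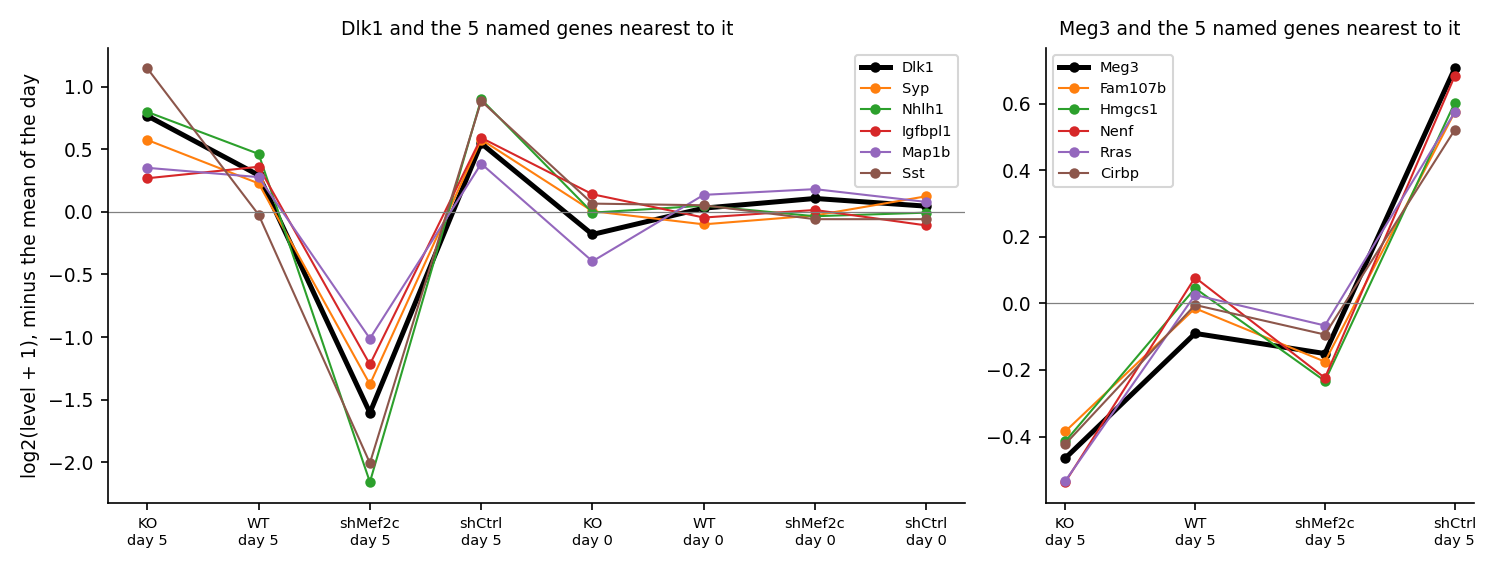
log2(level + 1) minus the mean of the day (y axis) for Dlk1 and its 5 nearest genes over the 8 libraries (left, KO, WT, shMef2c and shCtrl at day 5 and then at day 0), and for Meg3 and its 5 nearest genes over the 4 day 5 libraries (right). Each point is 1 library. The genes on the left share a low point in shMef2c at day 5 (-1.60 for Dlk1), and those on the right a high point in shCtrl and a low point in KO.

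Lineage markers also differed between the day 5 libraries, and not in 1 order with Dlk1 or Meg3. The 15 neuronal markers, all present in every day 5 library, summed to 304.44 FPKM in KO and 362.88 FPKM in WT, and to 119.77 FPKM in shMef2c and 545.09 FPKM in shCtrl, and 14 of the 15 were 2-fold or more lower in shMef2c than in shCtrl. This list contains Syp. The 15 neural progenitor markers summed to 370.11 FPKM in KO and 889.08 FPKM in WT, and to 310.84 FPKM in shMef2c and 933.11 FPKM in shCtrl. Dlk1 was highest in KO, where the neuronal and the neural progenitor sums were both below those of both controls. It was lowest in shMef2c, where both sums were lowest. The neuronal list was split in KO, with 5 of the 15 higher than in WT and 10 lower, of which 1 and 3 by 2-fold or more. Against shCtrl, 2 were higher in KO and 13 lower. Among those higher in KO than in WT were Syp (7.19 and 5.44 FPKM) and Tubb3 (148.48 and 108.99 FPKM). The mesoderm list summed to 18.50 FPKM in KO (10 of 12 above 0, with Mesp1 and Msgn1 at 0) and 53.83 FPKM in WT, and to 160.32 FPKM in shMef2c and 54.38 FPKM in shCtrl. The lower sum in KO rests on T alone, at 0.35 FPKM in KO and 40.47 FPKM in WT. Tcf15 went the other way, at 14.07 FPKM in KO and 5.96 FPKM in WT. Only 3 of the 12 had a mean of 1 FPKM or more over KO and WT. The visceral endoderm list, all 15 above 0 at day 5, summed to 141.26 FPKM in KO and 47.52 FPKM in WT, and to 64.98 FPKM in shMef2c and 109.98 FPKM in shCtrl. The part of these markers' cell types in the Dlk1 and Meg3 values was not tested.

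Imprinted genes outside the domain were measured for comparison. Of 46 listed, 35 had a mean of 1 FPKM or more over KO and WT, and 2 were 2-fold or more higher and 7 lower in KO, with a median log2 ratio of -0.23, beside 7.31% of all genes 2-fold different and an all-gene median of 0.00. Mest, a paternally expressed gene with a hydrolase-like product, was at 5.99 FPKM in KO and 306.19 FPKM in WT. Grb10, an adaptor that restrains growth signalling, was at 3.06 FPKM in KO and 96.79 FPKM in WT. Between shMef2c and shCtrl, 3 of 38 were higher and 10 lower, with a median of -0.42, beside 9.26% of all genes and an all-gene median of -0.05. Here Cdkn1c, a cell cycle inhibitor, was at 2.85 FPKM in shMef2c and 126.94 FPKM in shCtrl, and Nnat, a brain-expressed membrane protein, at 2.93 FPKM in shMef2c and 34.47 FPKM in shCtrl. These genes were named because their ratios were the largest of the list, so their size is no yardstick for the members of the domain.

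Genes that maintain imprints or write and remove DNA methylation were also counted, in a list that held other chromatin genes too (Ezh2, Eed, Suz12, Jarid2, Ctcf and Mbd3 among them). Of 20, 1 was 2-fold or more higher and 0 lower in KO than in WT (median 0.18), and 3 were higher and 0 lower in shMef2c than in shCtrl (median 0.37), beside 7.31% and 9.26% of all genes 2-fold different. Tet1, which oxidises methylcytosine, was at 12.26 FPKM in KO and 4.68 FPKM in WT. Dnmt3l, the cofactor of new methylation, was at 60.20 FPKM in KO and 31.53 FPKM in WT, and at 90.71 FPKM in shMef2c and 12.53 FPKM in shCtrl. Dppa3, which is known to protect maternal imprints in the mouse zygote, was at 55.42 FPKM in shMef2c and 18.88 FPKM in shCtrl. DNA methylation itself was not measured.

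Because Dlk1 belongs to the wider Notch ligand family, the receptors, ligands and effectors of that pathway were set beside it. Of 16 with a mean of 1 FPKM or more, 0 were 2-fold or more higher and 6 lower in KO than in WT (median -0.80), and 0 higher and 6 lower in shMef2c than in shCtrl (median -0.41). Over all genes, 7.31% differed 2-fold between KO and WT, and 9.26% between shMef2c and shCtrl, where 4.78% were lower. Hes5, a target gene of Notch in neural progenitors, was at 4.47 FPKM in KO and 23.32 FPKM in WT, and at 0.57 FPKM in shMef2c and 36.04 FPKM in shCtrl. Lfng, which modifies Notch receptors, was at 5.14 FPKM in KO and 18.20 FPKM in WT. Nrarp, a feedback inhibitor of the pathway, was at 6.37 FPKM in shMef2c and 32.44 FPKM in shCtrl. Dlk1 was on the low side together with Hes5 in shMef2c, but not in KO.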

How the data were processed

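Polyadenylated RNA of 8 libraries was measured, 1 per line and day. For each day 5 library the authors deposited expected counts (estimated reads per gene) and FPKM values, per the file headers, with genes under 0.01 FPKM left out of the files and set to 0 here. The day 0 table that the authors deposited holds RPKM values and estimated counts, per the file headers. The authors also deposited tables of KO against WT and shMef2c against shCtrl at day 5 with log2 ratios and p-values, per the file headers. They list only differences of at least 2-fold, so absence from them is no measure of equality. Per the submitters' processing notes, RSEM, Bowtie, Bowtie2, HISAT and HISAT2 and the build mm9 were used, in roles and versions not given there.

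From these values log2((value + 1)/(value + 1)) was computed, for genes whose mean over both libraries was at least 1, and a gene was counted at 2-fold or more. Day 5 over day 0 was centred on the median of those of the 17363 shared genes that had such a mean, 11989 to 12182 per line. No test was made, since no group has a replicate. Intervals on read shares are exact (Clopper-Pearson, 95%), those on levels exact Poisson, both for counting error only. Gene order and names, promoters and miRNAs came from RefSeq tables of GRCm38.p6, which differs from mm9, so no other coordinates are given. All 4 members matched the promoter table.

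The members and lists were chosen with earlier results of these data known. Named genes were the members, the listed genes of the domain and its flanks, the 5 genes nearest in pattern to Dlk1, Meg3 and Mirg (without unnamed, LOC, Rik or Gm genes), and the 2 genes of each other list with the largest ratios. The rule took 8 libraries for Meg3, and 4 were used because Meg3 was not matched to a single row by symbol at day 0. As alternatives, the pseudocount was set to 0.1, the minimum mean to 0 or 5, and the values replaced by TPM or by estimated counts scaled by TMM (edgeR 4.0.16) or DESeq2 1.42.0 size factors, which were computed on counts rounded to whole numbers. The other control library and, between the days, no centring were also tried. The procedure was tested on simulated data. Python 3.11.15, pandas 2.3.3 and scipy 1.17.1 were used.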

Additional observations from a re-analysis of the deposited data

Results flagged for a closer look

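The log2 ratio of Dlk1 in KO over WT changed sign between the days, from the single pairs of libraries: the ratio at day 5 minus that at day 0 was 0.68. For shMef2c over shCtrl the same difference was -2.21, with the day 0 library labelled shMef2c holding more Mef2c than shCtrl. Neither day 0 sign is established. The read share of KO was 0.843 times that of WT at day 0 (0.568 to 1.25). That of the library labelled shMef2c was slightly below shCtrl, with an interval that includes no difference. The change in Dlk1 level between the days had the opposite sign in shMef2c to the other lines, by -2.61 relative to KO, -2.1 relative to shCtrl and -1.92 relative to WT. None of these differences was tested, since there is 1 library per group. The sign of the shMef2c change between the days rests on the length of the gene model, as the read share was 1.79 times that at day 0.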

How the results depend on the processing

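No paired analysis was possible because each group is 1 library. The choice of control library moved Meg3, Rian and Mirg in both perturbed lines at day 5. It also moved Dlk1 in KO, which was at 0.47 over WT. With WT in place of shCtrl, shMef2c at day 5 gave -1.90 for Dlk1, -0.06 for Meg3, 0.10 for Rian and 0.58 for Mirg. With shCtrl in place of WT, KO at day 5 gave 0.22 for Dlk1, -1.17 for Meg3, which was then called (1 member in place of 0), -0.32 for Rian and -0.15 for Mirg. Rian and Mirg thus changed sign in both comparisons. Under the other alternatives, with the control kept, Dlk1 in shMef2c over shCtrl at day 5 ran from -2.77 to -2.15 and Meg3 from -0.92 to -0.81. Under these, signs of small ratios changed for Mirg in shMef2c over shCtrl at day 5 (0.03 with TMM) and for Dlk1 in shMef2c over shCtrl at day 0 (down to -0.12), in shCtrl over WT at day 0 (-0.02 with TPM) and in shMef2c between the days (up to 0.70 with size factors), where counts ignore gene length. With a mean of 5 or more, Dlk1 left the comparison of shMef2c with shCtrl (0 of the 4 called in place of 1) and of WT between the days (0 in place of 1), by the construction of that filter. Counts over all genes moved by over 1.5 times in 21 cases and by less in 47. For KO over WT at day 5 (938) they were 1459 with a pseudocount of 0.1 and 502 with a mean of 5 or more, and for shMef2c over shCtrl at day 5 (1208) 623 with that mean. For KO over WT at day 0 (352) they were 653 and 204 under the same settings, 583 with TPM and 216 against shCtrl. For shMef2c over shCtrl at day 0 (28) they were 93, 7, 80 and, against WT, 313. For shCtrl over WT they were 330, 57 and 218 at day 5 (128) and 304, 83 and 264 at day 0 (151). Between the days, a mean of 5 or more gave 1429 in KO, 1409 in shMef2c, 2446 in shCtrl and 2394 in WT, against 2387, 2288, 3725 and 3598. The cause of the other moves was not tested. TPM moved the median of all genes tested between the days by -0.33 to -0.25 before centring. Depth limits Dlk1 at day 0 to 50 to 63 reads and Rtl1, Dio3 and Mirg to wide intervals.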
